A study of Homo sapiens with 2 samples.

Results

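Among the genes listed as changed in Hep3B cells with a caveolin-1 hairpin, 49 genes encode proteins annotated to membranes. They come from both of the authors' deposited tables, which list the probe sets past 2-fold in either direction. A gene was included when its row carries a single symbol and a Gene Ontology cellular component naming plasma membrane or integral to membrane, but not the term nucleus. A set of 30 genes, CAV1 among them, was left out by name. The 49 genes are represented by 51 probe sets, out of 190 genes with a single symbol in those tables and 54613 probe sets on the array. Hep3B is a long-established line of human liver cancer (hepatocellular carcinoma, HCC). The sample called shCav1, with a short hairpin that targets caveolin-1, was compared with the sample called shCtl, with a non-target hairpin, both grown in DMEM-HG, with 1 array each. Whether each line is a clone or a pool, and how the hairpin was delivered, is not given in the labels. With 1 sample per group, lower CAV1 and any other difference between the samples cannot be told apart, and no p-value is given.

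Caveolin-1 coats caveolae, the flask-shaped pits of the plasma membrane, and binds cholesterol. Membrane proteins carry signals, hold cells to each other and move solutes, and others shape and supply the inner membranes along which they travel. A liver cell uses such proteins on a blood-facing side and on a bile-facing side, among them carriers of bile acids, amino acids, metals and sterols.

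The hairpin target was checked first. At probe set 212097_at CAV1 had 935 in shCtl and 61.8 in shCav1, and at 203065_s_at it had 524 and 38.7, so the labels and the target matched. The probe sets of hepatocyte marker genes such as ALB and AFP were not analysed here. The deposited tables name only probe sets past 2-fold and hold none of the 40 marker genes looked for, of 6 liver and blood cell types. The cell type of the samples is therefore taken from their labels. The 18 probe sets of bacterial hybridization spikes had a median log2 difference of 0.14, with a range of 0.07 to 0.25, all higher in shCav1.

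The values that chose these genes are the same shCav1 minus shCtl differences that are described below, so each difference is a description of 1 pair of arrays. Each value is that of a listed probe set. Probe sets under 2-fold have no gene name here, so any further probe set of a gene that stayed under 2-fold is not seen. Of the 49 genes, 35 were higher and 14 were lower in shCav1. Over all probe sets without a brightness filter, 0.278% were at least 2-fold higher and 0.168% at least 2-fold lower. In 43 of the 49 genes, 31 higher and 12 lower, the brighter array reached the median of all signals, 30.7 on the linear scale. Among all probe sets past that filter, 0.501% were at least 2-fold higher and 0.299% lower. Because the rule used this contrast, nothing is read from these shares. The genes below the filter were PTPRD, WNT2B, GPC5 and KCNJ3, which were higher, and SEMA6A and ITGAL, which were lower.

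**Figure D1:**
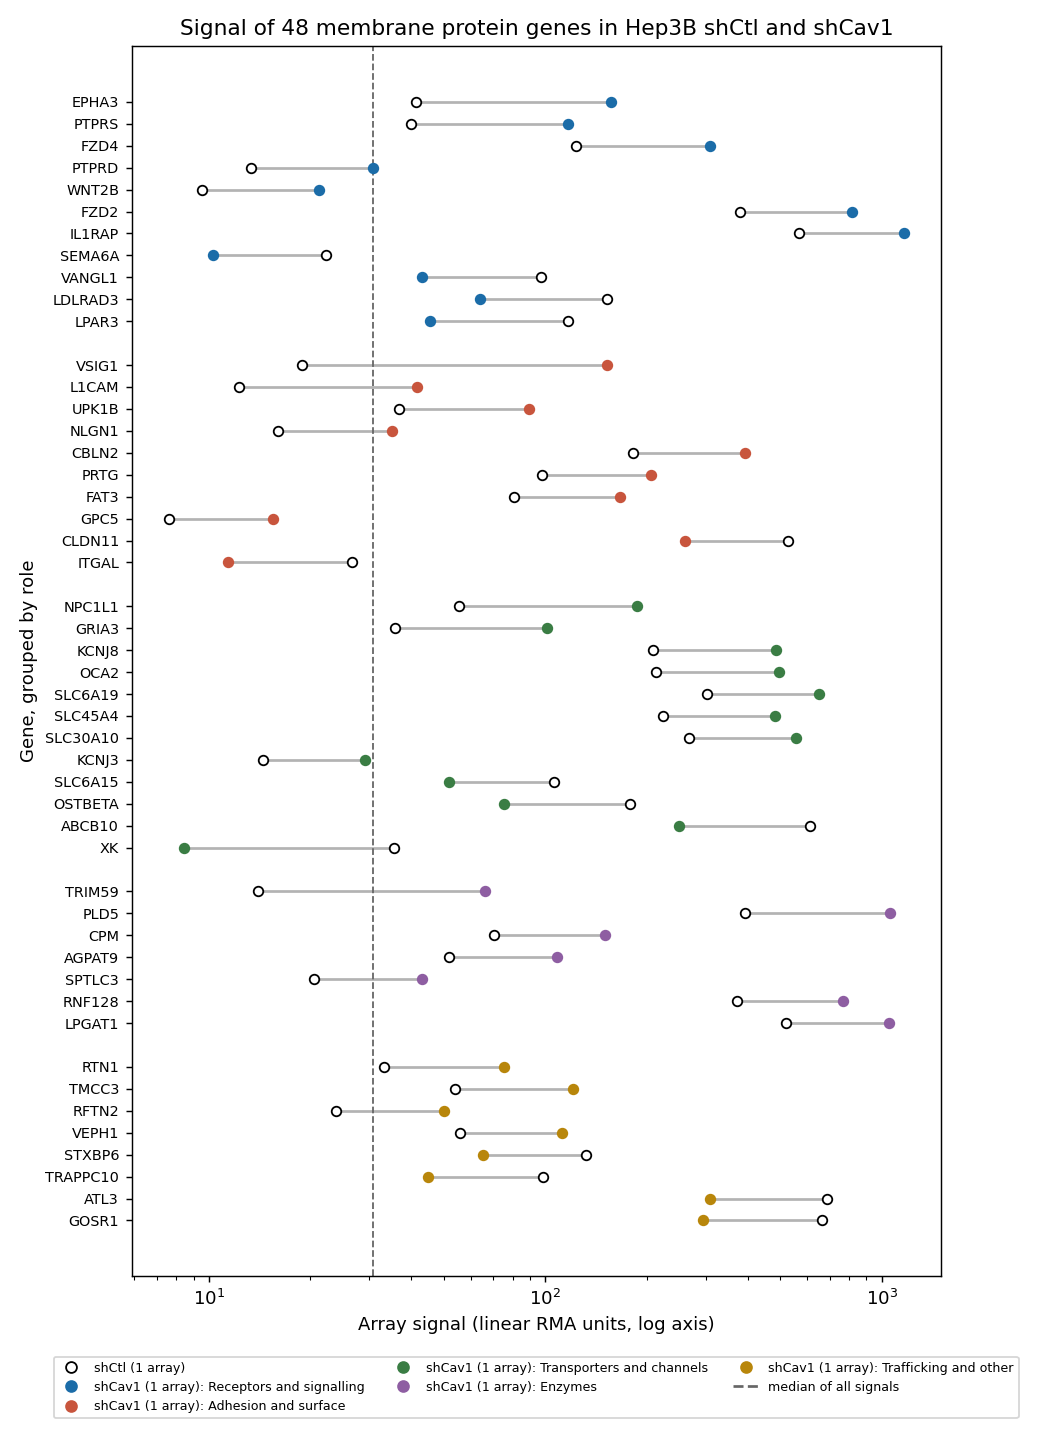
Array signal (linear RMA units, log axis) of the 48 genes described here in shCtl (open circles) and shCav1 (filled circles), 1 array each, grouped by role. The dashed line is the median of all signals, 30.7. In 6 genes both circles lie left of it, and the 7 genes shown of the enzyme group lie higher in shCav1.

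Most of the differences lay near the limit of 2-fold that put a gene in the tables. The median log2 difference was 1.11 over the 35 higher genes and -1.17 over the 14 lower genes. A difference of at least 3-fold was found in 5 higher genes and 1 lower gene. The last genes inside the 2-fold limit were KCNJ3 with a log2 difference of 1.006 and VEPH1 with 1.010, and on the lower side STXBP6 with -1.011 and CLDN11 with -1.015. Just outside lay unnamed probe sets with 0.999999 (214053_at) and -0.999998 (204268_at). The robust SD of the log2 difference over all probe sets past the brightness filter was 0.21, and their median was -0.0067. This spread is over probe sets of a single array pair and is no replicate error.

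**Figure D2:**
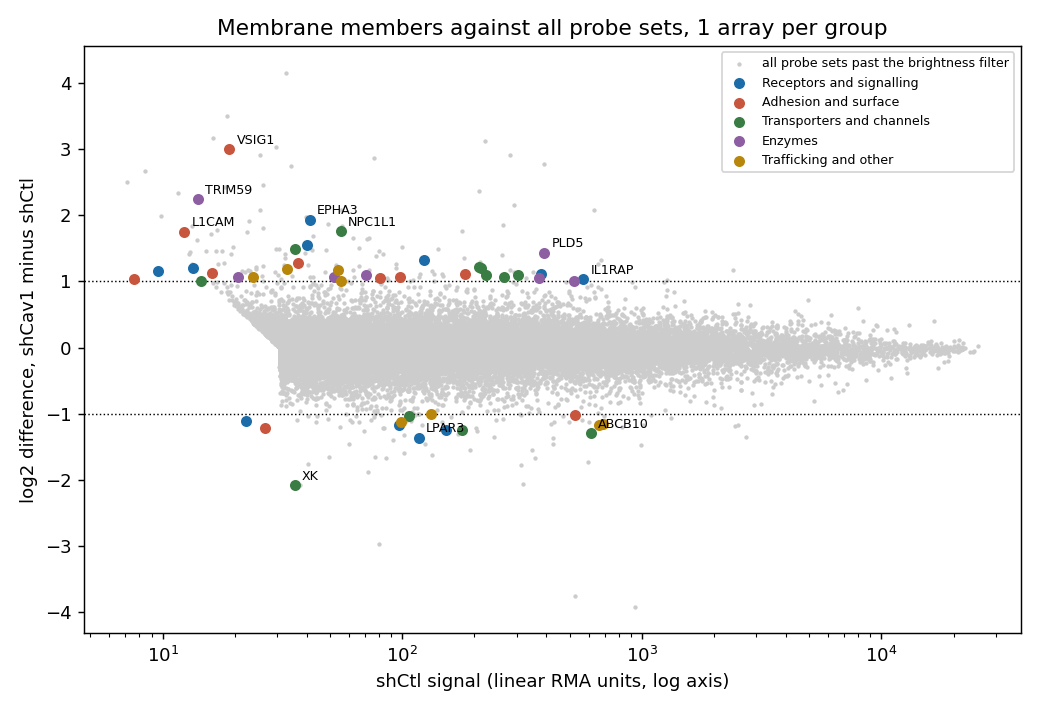
Log2 difference, shCav1 minus shCtl, against the shCtl signal (linear RMA units, log axis). Grey points are the 28128 probe sets past the brightness filter, coloured points are the 48 genes described here, by role, and dotted lines mark 2-fold. VSIG1 at 3.004 and XK at -2.08 lie farthest from 0 among the coloured points.

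Among 11 receptors and signalling proteins, 7 were higher and 4 lower in shCav1. EPHA3, a receptor tyrosine kinase for ephrin-A ligands, had a signal of 41.2 in shCtl and 157 in shCav1, which is 3.81-fold (log2 1.93). Its probe set 206070_s_at lies on chromosome 3, plus strand, from 89156673 to 89531282 in the deposited alignments, for which no source used here names a build. The receptors for Wnt ligands FZD4 and FZD2 were also higher. FZD4, which also binds norrin, had 123 in shCtl and 308 in shCav1, 2.498-fold. FZD2 had 379 and 817, 2.16-fold. Both lay above the array median on both arrays, whereas the secreted ligand WNT2B had 9.52 and 21.3, below the array median on both. The log2 difference of WNT2B was 1.16, and 0.55 with a pseudocount of 16.

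The receptor tyrosine phosphatases PTPRS and PTPRD belong to the LAR family, whose extracellular parts bind proteoglycans and synaptic partners. PTPRS had 40.0 in shCtl and 117 in shCav1, a log2 difference of 1.55. PTPRD had 13.3 and 30.7, a log2 difference of 1.20, with both values under the array median (30.74 to 2 decimals). Both of these genes were higher, but under a pseudocount of 16 only PTPRS stayed past 2-fold, at 1.248 against 0.67 for PTPRD. IL1RAP, the shared co-receptor for interleukin-1 and interleukin-33, had 569 and 1166, 2.05-fold.

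The lower receptors included LPAR3, a G protein-coupled receptor for lysophosphatidic acid. Its signal was 117 in shCtl and 45.5 in shCav1, which is 38.9% of shCtl (log2 -1.36), at a probe set on the minus strand of chromosome 1 (85277287 to 85277754 as deposited). LDLRAD3, a member of the low-density lipoprotein receptor family, had 152 and 64.1, or 42.0%. VANGL1, a core protein of planar cell polarity, had 97.0 and 43.1, or 44.4%. SEMA6A, a transmembrane semaphorin that guides axons, had 22.2 and 10.3, both below the array median. LPAR3, LDLRAD3 and VANGL1 thus lay above the array median on both arrays, and SEMA6A on neither.

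The promoters of the genes with the largest differences in each direction are shown first, among genes past the brightness filter that have a single start site in the RefSeq table and a single probe set alignment. The window runs from 250 bases before to 50 after the start site on the gene's strand in GRCh38.p14. Capitals mark matches, on either strand, to TATAAA (the TATA box), CCAAT (the CCAAT box), GGGCGG (the GC box), TGANTCA (the AP-1 site), CACGTG (the E-box) and TCACNCCAC (the sterol response element).
TRIM59, chr3:160449737-160450036, minus strand: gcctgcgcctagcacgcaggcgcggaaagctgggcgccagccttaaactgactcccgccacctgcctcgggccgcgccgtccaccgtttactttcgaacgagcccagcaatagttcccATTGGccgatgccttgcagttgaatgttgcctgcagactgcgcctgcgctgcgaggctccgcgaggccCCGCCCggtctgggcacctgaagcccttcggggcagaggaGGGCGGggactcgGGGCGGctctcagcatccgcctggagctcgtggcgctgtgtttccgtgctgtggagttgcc
EPHA3, chr3:89107371-89107670, plus strand: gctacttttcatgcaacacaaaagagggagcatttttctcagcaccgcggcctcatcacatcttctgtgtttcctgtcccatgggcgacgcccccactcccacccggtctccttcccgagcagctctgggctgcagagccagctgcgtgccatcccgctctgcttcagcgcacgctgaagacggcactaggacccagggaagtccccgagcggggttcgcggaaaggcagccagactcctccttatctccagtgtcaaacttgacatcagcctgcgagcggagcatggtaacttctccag
LPAR3, chr1:84893157-84893456, minus strand: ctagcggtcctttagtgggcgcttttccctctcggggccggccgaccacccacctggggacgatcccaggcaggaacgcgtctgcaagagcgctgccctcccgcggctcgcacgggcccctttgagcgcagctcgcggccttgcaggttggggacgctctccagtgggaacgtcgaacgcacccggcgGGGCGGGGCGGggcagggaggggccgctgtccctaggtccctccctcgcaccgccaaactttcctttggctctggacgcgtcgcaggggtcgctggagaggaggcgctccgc
LDLRAD3, chr11:35943812-35944111, plus strand: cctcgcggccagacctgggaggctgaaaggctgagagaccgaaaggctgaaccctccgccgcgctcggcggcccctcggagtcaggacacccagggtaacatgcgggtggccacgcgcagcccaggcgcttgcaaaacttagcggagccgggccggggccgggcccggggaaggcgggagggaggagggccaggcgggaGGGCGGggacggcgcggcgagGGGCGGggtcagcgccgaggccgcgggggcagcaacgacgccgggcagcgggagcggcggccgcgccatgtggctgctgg
The windows of LPAR3 and LDLRAD3, which were lower, each hold 2 GC boxes, overlapping by 1 base in LPAR3. TRIM59, which was higher, has 3 GC boxes and 1 CCAAT box. EPHA3 has no match to these letters in this window.

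Among 10 adhesion and surface proteins, 8 were higher and 2 lower. VSIG1, an immunoglobulin-domain protein of gastric epithelium, had the largest difference of all 49 genes, with 18.97 in shCtl and 152 in shCav1 (log2 3.004, and 2.27 under a pseudocount of 16). L1CAM, an adhesion molecule of neurons, had 12.3 and 41.5, a log2 difference of 1.75. The shCtl signal of both genes lay under the array median, and the shCav1 signal above it. NLGN1, the postsynaptic partner of neurexins, had 16.01 and 34.9 and the same placing. UPK1B, a tetraspanin of urothelial plaques, had 36.8 and 89.7, 2.44-fold, with both values above the median.

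PRTG, an immunoglobulin-superfamily protein of the early embryo, had 98.0 in shCtl and 206 in shCav1, 2.10-fold. The atypical cadherin FAT3 had 80.5 and 166.5, 2.07-fold, and its probe set has no deposited alignment. CBLN2 had 183 and 393, 2.15-fold. The CBLN2 product is a secreted synapse organizer in mouse, and its membrane term here rests on electronic annotation alone. GPC5, a glypican anchored to the outer face of the membrane and bearing heparan sulfate, had 7.59 and 15.6, below the array median on both arrays.

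The lower adhesion genes were CLDN11 and ITGAL. CLDN11, a claudin of tight junctions in myelin and testis, had 526 in shCtl and 260.5 in shCav1, or 49.5%. ITGAL, the alpha subunit of the leukocyte integrin LFA-1, had 26.6 and 11.4. Both ITGAL values lay under the array median, and none of the 6 lymphocyte markers looked for was listed past 2-fold. Their levels were not analysed here, so a part of other cells in this value was not tested.

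Among 12 transporters and channels, 8 were higher and 4 lower. NPC1L1, which takes up cholesterol in the intestine and at the bile-facing side of human hepatocytes, had 55.5 in shCtl and 187.5 in shCav1, 3.38-fold (log2 1.76). Its probe set aligns to the minus strand of chromosome 7 at positions 44552136 to 44580914 as deposited. Its membrane annotation is among the 6 that rest on an experiment. SLC30A10, a manganese exporter, had 267 and 556, 2.09-fold. SLC45A4, a member of the sugar transporter-like SLC45 family, had 224 and 481, 2.14-fold. OCA2, a protein of the melanosome membrane, had 213.5 and 494, 2.31-fold. These 4 genes were above the array median on both arrays.

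A pair of sodium-coupled neutral amino acid transporters of the SLC6 family went opposite ways. SLC6A19, known from the brush border of intestine and kidney, had 303 in shCtl and 650.3 in shCav1, 2.14-fold. SLC6A15, known from brain, had 106 and 51.8, or 48.7%. The log2 differences were 1.10 and -1.04, both close to the 2-fold limit, and under a pseudocount of 16 that of SLC6A15 was -0.85.

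Each of the 3 channel genes among the 49 was higher. KCNJ8, the pore of the ATP-sensitive potassium channel Kir6.1, was the channel gene with more than 1 listed probe set. At probe set 205303_at it had 209 in shCtl and 486 in shCav1, and at 205304_s_at 147 and 317. The mean log2 difference was 1.17 ± 0.08 (technical SD, n = 2 probe sets on these arrays). Both probe sets were listed for passing 2-fold, so this SD is no measure of their agreement. KCNJ3, a G protein-gated inward rectifier, had 14.5 and 29.0, below the array median on both arrays. GRIA3, an AMPA-type glutamate receptor subunit, had 35.8 and 101, 2.82-fold. The promoters of the potassium channel pair are shown because both belong to 1 protein family and had the same direction, with capitals as above.
KCNJ8, chr12:21774657-21774956, minus strand: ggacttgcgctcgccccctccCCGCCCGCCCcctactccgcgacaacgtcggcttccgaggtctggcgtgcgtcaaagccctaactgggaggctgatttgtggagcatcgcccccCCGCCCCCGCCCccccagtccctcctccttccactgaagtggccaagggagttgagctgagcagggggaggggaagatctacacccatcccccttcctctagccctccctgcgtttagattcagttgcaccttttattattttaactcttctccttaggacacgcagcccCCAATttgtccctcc
KCNJ3, chr2:154698445-154698744, plus strand: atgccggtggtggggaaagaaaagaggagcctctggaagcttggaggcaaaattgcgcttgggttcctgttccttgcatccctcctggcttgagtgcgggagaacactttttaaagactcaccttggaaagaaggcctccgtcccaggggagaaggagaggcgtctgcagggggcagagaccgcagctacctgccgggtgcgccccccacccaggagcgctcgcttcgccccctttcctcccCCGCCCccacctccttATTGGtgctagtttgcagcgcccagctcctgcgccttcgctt
The KCNJ8 window holds 4 GC boxes, all on the opposite strand and 2 of them overlapping, and 1 CCAAT box after the start site. The KCNJ3 window holds 1 of each.

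The lower transporters were ABCB10, OSTBETA, XK and SLC6A15. OSTBETA, named SLC51B in RefSeq, is a subunit of the exporter that carries bile acids out of the blood-facing side of the cell. It had 178.5 in shCtl and 75.5 in shCav1, or 42.3% (log2 -1.24, and -1.09 with a pseudocount of 16). ABCB10, an ABC transporter of the mitochondrial inner membrane, had 614 and 250.1, or 40.7%. The ABCB10 probe set has 4 deposited alignments, of which 1 lies on chromosome 1, the chromosome of the gene, and the others on chromosome 15, so its value is uncertain between copies. XK, a partner of the Kell blood group protein, had 35.6 and 8.40 (log2 -2.08, and -1.08 under a pseudocount of 16). XK was therefore near the array median in shCtl and well under it in shCav1, while the other lower transporters were above the median on both arrays.

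All 8 genes placed in the enzyme group were higher in shCav1, and all passed the brightness filter. The group was drawn by role and does not hold every enzyme of the 49. Hydrolase activity was annotated to 5 of the 49 genes, 4 higher and 1 lower (ATL3). PTPRD, which was below the filter, is among these. Of all 190 listed genes 64.2% were higher, so nothing is read from the direction of the enzyme group. After centring on the hybridization spikes 2 of the 8, TRIM59 at 2.11 and PLD5 at 1.30, stayed past 2-fold, and the others described here had log2 differences of 0.88 to 0.96. Of the 7 described here, 3 act in lipid synthesis at the endoplasmic reticulum. LPGAT1, an acyltransferase of lysophospholipids, had 521 in shCtl and 1052 in shCav1, 2.02-fold. AGPAT9, named GPAT3 in RefSeq, starts glycerolipid synthesis and had 51.8 and 108, 2.09-fold. SPTLC3, a subunit of serine palmitoyltransferase, which starts sphingolipid synthesis, had 20.6 and 43.0, 2.09-fold. All of these lay close to the 2-fold limit, and under a pseudocount of 16 their log2 differences were 0.99, 0.87 and 0.69.

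PLD5, a member of the phospholipase D family, had 392 in shCtl and 1059 in shCav1, 2.699-fold (log2 1.43, and 1.40 under a pseudocount of 16). CPM, a carboxypeptidase anchored to the cell surface, had 70.5 and 151 at 206100_at and 14.2 and 29.7, below the array median, at 235019_at. Its mean log2 difference was 1.08 ± 0.03 (technical SD, n = 2 probe sets on these arrays). As for KCNJ8, both probe sets were listed for passing 2-fold, so the SD is no measure of agreement.

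Both ubiquitin ligases among the enzymes were higher. TRIM59 had 14.0 in shCtl and 66.3 in shCav1, 4.73-fold (log2 2.24, and 1.46 under a pseudocount of 16). RNF128, a ligase that spans the membranes of the endosomal system, had 371 and 767, 2.07-fold. RNF128 was above the array median on both arrays and TRIM59 on the shCav1 array alone.

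The 8 trafficking and other membrane proteins were evenly split, 4 higher and 4 lower. The lower genes serve vesicle transport or shape the endoplasmic reticulum. GOSR1, a SNARE of the Golgi, had 663 in shCtl and 293 in shCav1, or 44.3%. ATL3, an atlastin GTPase that fuses tubules of the endoplasmic reticulum, had 686 and 308, or 44.9%. TRAPPC10, a subunit of the TRAPP tethering complex, had 98.5 and 44.9, or 45.6%. STXBP6, which binds SNARE proteins, had 132 and 65.5, or 49.6%. All 4 lay above the array median on both arrays. Of them GOSR1 and ATL3 stayed past 2-fold with a pseudocount of 16.

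The higher genes of this group were RTN1, TMCC3, RFTN2 and VEPH1. RTN1, a reticulon of the endoplasmic reticulum, had 33.1 in shCtl and 75.4 in shCav1, 2.28-fold. TMCC3, a coiled-coil protein of the same organelle, had 53.9 and 121, 2.25-fold. RFTN2, of the raftlin family named for lipid rafts, had 23.9 and 49.9, and VEPH1, with a lipid-binding PH domain, had 55.8 and 112. None of these 4 stayed past 2-fold under a pseudocount of 16, where the log2 differences were 0.896 for RTN1, 0.97 for TMCC3, 0.72 for RFTN2 and 0.84 for VEPH1.

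The label of the gene set was checked against its annotation. A term with plasma membrane was held by 26 genes, 20 higher and 6 lower, and 23 genes, 15 higher and 8 lower, entered through integral to membrane alone. The membership terms of 6 genes (ATL3, FZD2, FZD4, LPAR3, NPC1L1 and OSTBETA) rested on an experiment. Those of 19 genes rested on an author statement, a curator, similarity or an unrecorded source, and those of 24 genes on electronic annotation alone. For those 24 of 49 genes the place in a membrane is a computed annotation, and the name membrane protein stands here for that annotation.

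Terms that the rule did not use placed 7 of the 49 genes (14.3%) in the endoplasmic reticulum, against 6 of the 141 other listed genes (4.26%). Those described here were AGPAT9, LPGAT1, RNF128, RTN1 and SPTLC3, which were higher, and ATL3, which was lower. Receptor activity was annotated to 13 genes (26.5%), against 7.09% of the other listed genes, and transporter activity to 8 genes (16.3%) against 1.42%. The 13 genes include GOSR1, described above as a SNARE, so the match is wider than receptors for signals. The genes with a transporter term were 3 higher (OCA2, SLC30A10 and SLC6A19) and 5 lower (ABCB10, OSTBETA, SLC6A15, TRAPPC10 and XK). This term takes in the tethering subunit TRAPPC10 and leaves out NPC1L1 and SLC45A4, which were higher. It is thus not the group of transporters and channels described above. Channel activity was annotated to 3 genes (6.12%), all higher, and to 2 of the other listed genes (1.42%), both higher. Synaptic terms were held by GRIA3, L1CAM and NLGN1 (6.12%), all higher. Of the other listed genes 3 (2.13%) held such terms, also all higher. Such shares follow in part from the choice of membrane terms and carry no test.

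The direction of the set was set beside that of the 141 other listed genes. The share of higher genes was 71.4% among the 49 and 61.7% among the others. When differences were centred on the hybridization spikes, the shares among genes past the brightness filter and still past 2-fold were 53.8% and 56.5%. In tables already cut at 2-fold, this centring can take out higher genes but cannot add lower ones. The fall of both shares was thus fixed in advance, and the turned order tells nothing about direction. No difference in direction between both sets is given. The median log2 difference of the higher genes was 1.11, against 1.39 among the other higher genes, while that of the lower genes was -1.17 in both sets. Genes left out by name belong to the others, which touches this comparison.

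The background varied with the signal. At a shCtl signal of 500 or more, 0.130% of probe sets were at least 2-fold higher and 0.292% lower, and the set has 2 genes (IL1RAP and LPGAT1) and 4 genes (CLDN11, ABCB10, GOSR1 and ATL3) there. Below the array median in shCtl, 0.216% were higher and 0.0292% lower, with 10 and 2 genes of the set. Thus 10 of the 35 higher and 2 of the 14 lower genes were below the array median in shCtl, and each listed gene is by selection the dimmer on 1 of the arrays.

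Gene lists of membrane families were written with earlier results known and cover 290 entries in 10 lists. They are incomplete, so a count over a list is no count over its family. Over all probe sets 0.278% were at least 2-fold higher and 0.168% lower, but a gene can have several probe sets, and nothing is read from the counts beside these shares. Of 31 Eph, semaphorin, netrin and Wnt receptors 3 were listed, EPHA3, FZD4 and FZD2, all higher. Of 30 ion channels KCNJ8 and KCNJ3 were listed as higher. Of 40 adhesion and junction proteins L1CAM was listed, and of 32 immune membrane proteins VSIG1. Of 11 caveola coat proteins and partners CAV1 was listed, as lower. In the lists of hepatocyte transporters (33 genes), liver surface receptors (34), tetraspanins and similar proteins (26), G protein-coupled receptors (30) and membrane proteases (23) no entry was past 2-fold. These lists do not hold LPAR3, UPK1B, CPM, NPC1L1 and OSTBETA, which belong to such families and differed as given above. They also lack SEMA6A, CLDN11 and ITGAL, which were lower, and GRIA3, NLGN1 and FAT3, which were higher. Except for CAV1, they hold none of the genes left out by name. The direction of the entries found is therefore not that of their families. A list without an entry past 2-fold likewise does not show that its family was unchanged. Probe sets under 2-fold have no gene name here, so smaller differences in these families were not analysed.

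By chromosome, most genes lie on chromosome 1, with 8 of the 49 (16.3%), 5 higher and 3 lower. It holds 10.3% of protein-coding genes and 12.8% of the other listed genes. On chromosome 3, which holds 5.32% of protein-coding genes and 7.09% of the other listed genes, lie 7 of the 49 (14.3%). Those on chromosome 3 were EPHA3, UPK1B, TRIM59, NLGN1, VEPH1 and IL1RAP, which were higher, and CLDN11, which was lower. Another 5 genes (10.2%) lie on the X chromosome, against 4.23% of protein-coding genes and 8.51% of the other listed genes. These were GRIA3, L1CAM, RNF128 and VSIG1, which were higher, and XK, which was lower. In the gene order of GRCh38.p14 no pair of the 49 genes lay within 5 protein-coding genes of each other. With other listed genes there were 8 such pairs, 5 with the same direction and 3 with opposite directions. RNF128 lay near MUM1L1 (log2 2.74) and NRK (1.21), VSIG1 near COL4A5 (1.99), IL1RAP near LEPREL1 (1.40) and SLC30A10 near SPATA17 (1.17), all higher. In the opposite pairs FAT3, which was higher, lay near CHORDC1 (-1.06). SLC6A15 and XK, which were lower, lay near RASSF9 (1.06) and SYTL5 (1.12). These shares are descriptions of the chromosomes named, and nothing is read from them. Copy number was not analysed here.

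Promoter windows were in the RefSeq table for 38 of the 49 genes, 28 higher and 10 lower. VSIG1 and XK, which had the largest differences, were among those without a window. The median GC content was 64.1% for the higher genes and 71.0% for the lower, against 62.3% over 15841 protein-coding genes. The ratio of observed to expected CpG was at least 0.6 in 17 of the 28 higher genes (60.7%) and 7 of the 10 lower (70.0%), against 63.8% of all. The GC box was found in 21 of the higher and 8 of the lower genes, against 64.3% of all and 58.3% of the other listed genes. The CCAAT box was found in 15 higher genes (53.6%) and in 2 lower genes (20.0%), STXBP6 and CLDN11. It was found in 42.1% of all and 48.1% of the other listed genes. With 10 lower genes nothing is read from the contrast between directions. The TATA box was found in 5 higher genes (17.9%), the AP-1 site in 5 (17.9%) and the E-box in 2 (7.14%), against 12.4%, 8.04% and 10.9% of all. Among the other listed genes the shares were 13.0%, 9.26% and 13.9%. None of these motifs was found in a lower gene, but with 10 lower genes nothing is read from that. The sterol response element was found in none of the 38, against 1.52% of all. A gene with several start sites counts once if any of its windows holds the motif.

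**Figure D3:**
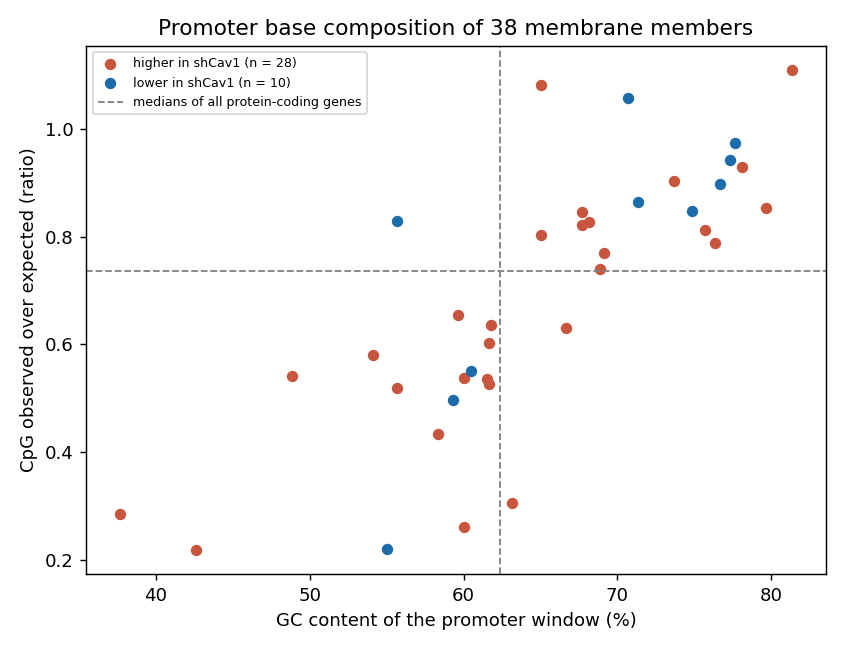
GC content (percent) against the ratio of observed to expected CpG in the promoter windows of 38 genes, averaged over start sites, with 28 higher genes in red and 10 lower genes in blue. Dashed lines are the medians of all protein-coding genes, 62.3% and 0.74. Genes of both directions lie on both sides of these lines.

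**Figure D4:**
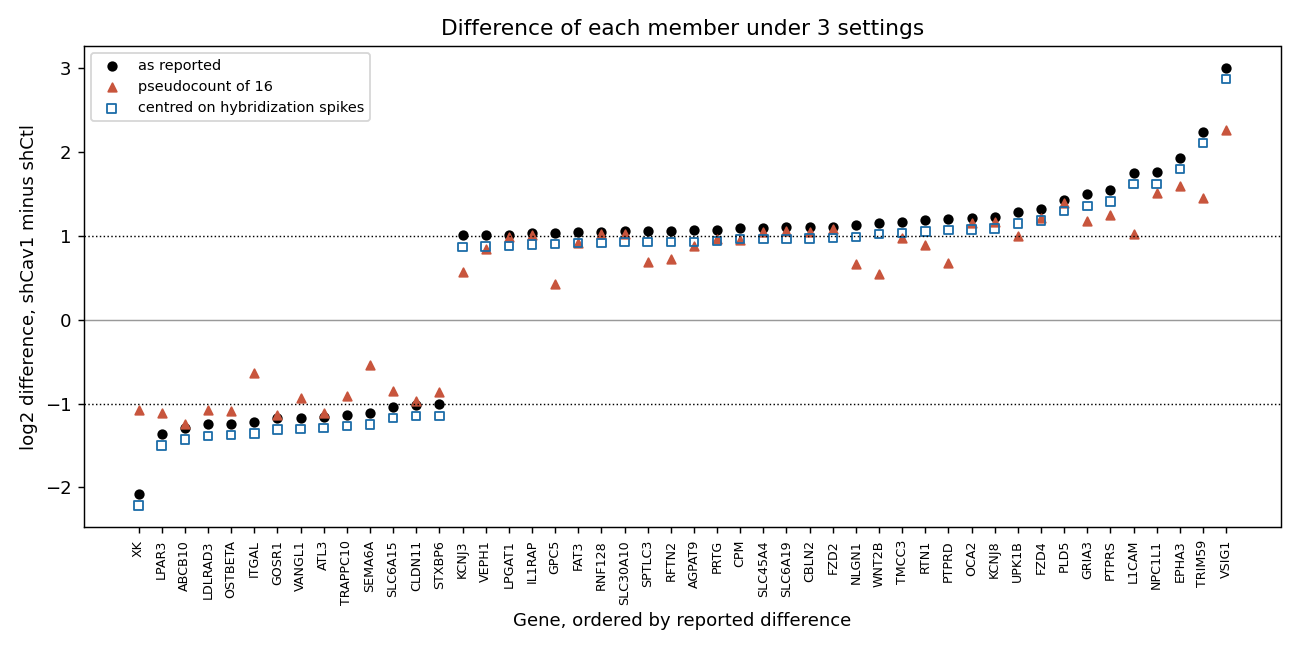
Log2 difference of each of the 48 genes described here, shCav1 minus shCtl, as reported (circles), with a pseudocount of 16 (triangles) and centred on the hybridization spikes (squares). Dotted lines mark 2-fold. Neither setting can carry these genes across 0. Under the pseudocount XK moves most toward 0, from -2.08 to -1.08, and GPC5 ends nearest to it at 0.42.

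The plot of settings shows how close to the limit most of these genes lie. With a pseudocount of 16, 20 higher and 7 lower genes past the brightness filter stayed past 2-fold. After centring on the spikes, 14 higher and 12 lower genes did. Neither setting can turn the direction of a gene chosen for passing 2-fold, so the direction is no sign of stability.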

How the data were processed

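Total RNA of 2 Hep3B samples was labelled with biotin and hybridised to 1 Affymetrix HG-U133 Plus 2.0 array each, per the labels and the file headers. RMA is the tool named, per the submitters' processing notes. The deposited series values are log2 values centred per probe set on both samples, so the shCav1 minus shCtl difference was used. The authors' deposited tables hold the same log2 difference for all 244 listed probe sets (tolerance 1e-05), a linear fold and a signed fold, which is a score here. The deposited linear signal intensity of shCtl was multiplied by the fold of the series values to give shCav1. A column with a name that matches no label, 1 in number, was not used.

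Controls (62 probe sets) were left out. The brightness filter kept a probe set when its brighter array reached the median signal over both arrays, 30.7 (28128 of 54613 probe sets). A gene was represented by its listed probe set with the highest mean signal, and any probe set of it under 2-fold was not seen. Every member is counted, and 48 of the 49 are named, since 1 is not reported here. Members, role groups and gene lists were chosen with earlier results of these data known. With 1 array per group no test was run and the number of arrays limits the precision. The counting was tested on simulated data. Python 3.11.15 and pandas 2.3.3 were used. Alternatives were other filters, a pseudocount of 16, other centrings, other probe sets, a 3-fold limit and other membership rules. Promoter windows came from RefSeq, GRCh38.p14. Proteins were not used here, so promoters stand in place of the planned protein sequences.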

Additional observations from a re-analysis of the deposited data

How the results depend on the processing

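Past the brightness filter there were 31 higher and 12 lower genes (72.1% higher). At least 1 of these counts moved by more than 1.5 times under the settings given next, while the share stayed within 1.5 times. A filter at the 75th percentile gave 19 and 7, and a pseudocount of 16 gave 20 and 7. Centring on the spikes gave 14 and 12 (53.8%), and it could only take out higher genes. A 3-fold limit gave 5 and 1 (83.3%). Membership through the plasma membrane term alone gave 16 and 5. Leaving out electronic annotation alone, chosen after seeing the data, gave 13 and 7. The other settings tried stayed within 1.5 times, among them no filter (35 and 14) and the genes left out by name kept in (43 and 17). So did 3 more chosen after seeing the data: 1 alignment (30 and 11), both arrays above the median (25 and 11) and terms matched whole (30 and 12). A pseudocount of 16 moved 22 of the 49 log2 differences by more than the robust SD of 0.21. Centring on the median or the spikes shifts all genes alike, since it subtracts 1 value from each, -0.0067 or 0.14, and the mean over probe sets can move CPM and KCNJ8 alone, so these settings show nothing about direction. Hydrophobic segments were not run, since proteins were not used here. No paired analysis was possible because there is 1 array per group. Background limits the 6 genes that stayed below the array median on both arrays.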

Other observations

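Signals of several of the 49 genes lay on a fixed grid. In 8 genes (CPM, FAT3, IL1RAP, LPGAT1, NPC1L1, OCA2, OSTBETA and STXBP6) both the shCtl and the shCav1 signal was within 0.001 of a multiple of 0.5. On the shCtl array alone this held for 9 of the 49 genes (18.4%). An even spread would place 0.4% of the values of 1 array there. Over all probe sets 3.85% of shCtl signals lay on this grid, and 7.16% of those at or above the array median. The share on both arrays was not computed over all probe sets. The 8 genes were chosen after their values were seen.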
